A study of Homo sapiens with 50 samples.

Results

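The transcriptome of HepaRG cells exposed to isoxaflutole at 1 mM was compared with that of cells exposed to mesotrione at the same concentration. The comparison used 10 of the 50 libraries of the series, 5 per compound, all taken by their sample labels. HepaRG is an established human liver tumour line, here bought already differentiated, which holds hepatocyte-like and biliary-like cells in the same culture. The compound was present from day 8 to day 14 of culture, in medium with 2% fetal bovine serum and 1% DMSO. The 5 control libraries carry the agent label Control, under the same protocol text. Nothing in the labels tells whether replicate libraries stem from different cultures. The p-values therefore cover the spread between these libraries, which may be technical. The matched pairs of groups at 10 uM and at 0.1 uM, again 5 libraries per compound, were used to follow the same genes at lower concentrations. Quizalofop-p-ethyl, the other compound of the series, entered no comparison.

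Isoxaflutole and mesotrione are herbicides with the same plant target, 4-hydroxyphenylpyruvate dioxygenase (HPPD), an enzyme of tyrosine breakdown that human liver also has. They differ in structure: mesotrione is a triketone, whereas isoxaflutole is an isoxazole that opens to a diketonitrile, the form that inhibits the enzyme. Liver cells sense lipids and foreign compounds through nuclear receptors. PPARalpha binds fatty acids and turns on genes of fatty acid uptake, oxidation and lipid droplets, while PXR and CAR bind many drugs and pesticides and turn on detoxifying enzymes, CYP3A4 first among them.

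All values are FPKM, a read count scaled for transcript length and library size, summed over the transcripts of each gene name, so levels can be compared between genes. A difference is the mean of log2(FPKM + 1) in the isoxaflutole libraries minus that in the mesotrione libraries, which understates the change of genes near or below 1 FPKM. Genes with at least 1 FPKM in 5 or more of the 10 libraries were tested with limma, and a gene was called at an adjusted p below 0.05 (Benjamini-Hochberg over all genes tested). The 10 libraries each had 12461 to 12994 genes at 1 FPKM or more. Their read totals are not in the table. A rough estimate from the smallest values of short single-exon transcripts put them between 8710000 and 30620000 fragments. Across the genes tested, log2 levels correlated at 0.931 to 0.955 between libraries of one compound and at 0.927 to 0.952 between libraries of different compounds, and no library duplicated another. The cells had hepatocyte transcripts, with albumin (ALB) at 3358 to 8214 FPKM with isoxaflutole and 4651 to 10302 FPKM with mesotrione, together with the biliary keratin KRT19 at means of 399.5 and 380.9 FPKM.

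Exposure to isoxaflutole left a short list of transcripts higher than exposure to mesotrione. The largest called differences were in the drug-metabolising enzyme CYP3A4, in 3 genes of lipid handling (ANGPTL4, FABP4 and PLIN2) and in UBD, a ubiquitin-like protein. Of 12806 genes tested, 30 were called, which is 0.234% of them. There were 29 higher with isoxaflutole (0.226%) and 1 lower (0.00781%), the caveolar coat gene CAV1. An unadjusted p below 0.05 was found for 981 genes. In 228 genes (1.78%) all 5 isoxaflutole libraries lay above all 5 mesotrione libraries, and in 46 genes (0.359%) all 5 lay below. The median difference over all genes was 0.03 on the log2 scale, and 7259 of the 12806 genes lay above 0. For 11342 genes (88.6%) the 95% interval of the difference lay within 1 log2 unit of 0 on both sides, so a difference of more than 2-fold on that scale lay outside the interval for most of the transcriptome. Among the called genes the plot of all genes tested shows CYP3A4 highest, with ANGPTL4, FABP4 and PLIN2 next. Some genes that were not called differed as much.

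**Figure D1:**
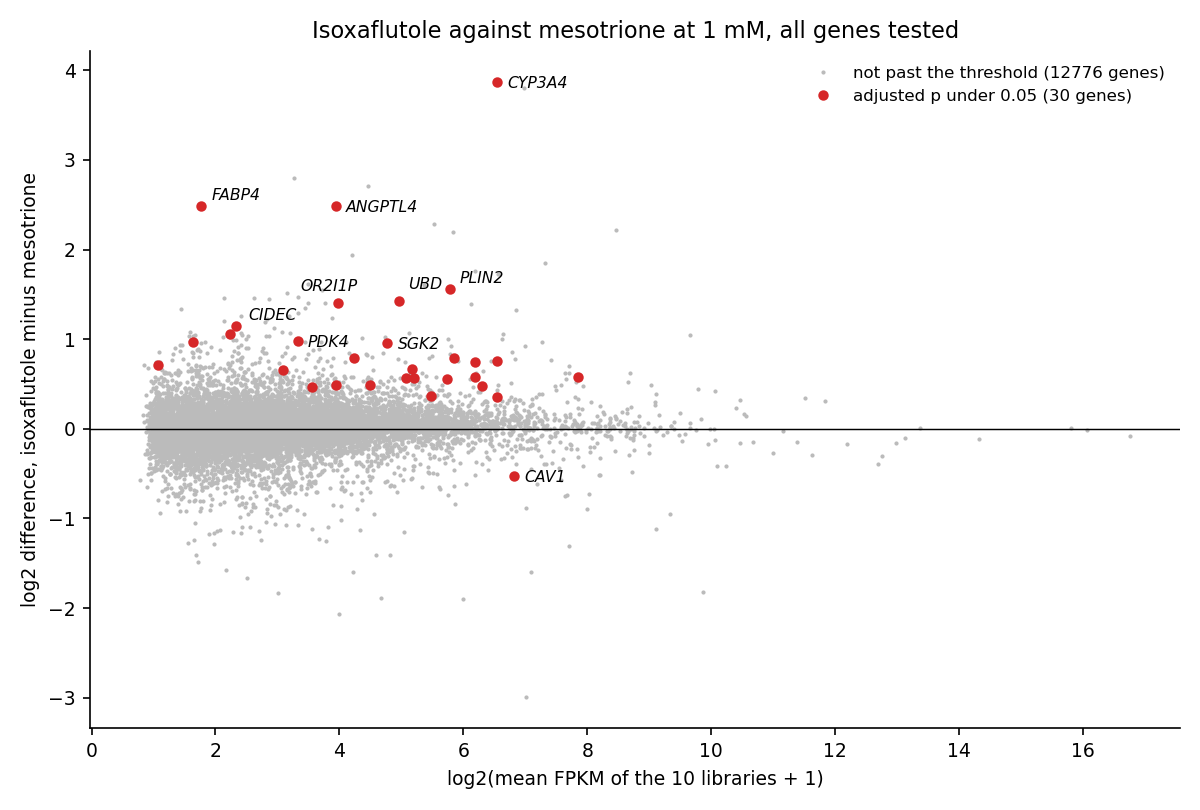
Each point is 1 of the 12806 genes tested at 1 mM. The x axis is log2 of the mean FPKM of the 10 libraries plus 1, and the y axis is the log2 difference, isoxaflutole minus mesotrione. The 30 genes past the adjusted threshold are coloured, and 29 of them lie above 0.

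CYP3A4 (chr7:99756960-99784265, minus strand, GRCh38), the main drug-oxidising cytochrome P450 of adult liver and the best known PXR target, had the largest difference of the 30. In the isoxaflutole libraries its level was 80.3, 138, 196, 274 and 180 FPKM. In the mesotrione libraries it was 6.24, 18.6, 9.53, 12.9 and 6.87 FPKM. The lowest isoxaflutole library was thus more than 4 times the highest mesotrione library. The group means were 174 ± 71.8 and 10.8 ± 5.08 FPKM (SD, n = 5 each), a 16.0-fold ratio, and the log2 difference was 3.87 (SE 0.35, 95% interval 3.09 to 4.65, limma adjusted p = 0.00126). The 5 control libraries held 2.53 to 3.10 FPKM, below every library of either compound. These control levels are given as a description and were not tested here. A single annotated transcript carried 99.4% of the gene's FPKM with isoxaflutole and 98.5% with mesotrione.

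The promoter of CYP3A4 is known for an everted repeat with 6 spacer bases, called ER6, to which PXR binds as a partner of RXR. It is shown here because CYP3A4 led the comparison and because its neighbours in the CYP3A cluster carry related stretches. The RefSeq promoter (GRCh38.p14, chr7:99784185-99784434, minus strand, the 250 bases before the transcription start) reads as follows, with the 2 repeat arms TGAACT and AGGTCA in capitals.
CYP3A4 promoter: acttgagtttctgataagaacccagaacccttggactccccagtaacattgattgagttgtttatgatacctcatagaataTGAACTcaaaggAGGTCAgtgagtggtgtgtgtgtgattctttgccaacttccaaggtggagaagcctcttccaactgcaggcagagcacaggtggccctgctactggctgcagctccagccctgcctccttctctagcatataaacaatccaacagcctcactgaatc
For each of the 4 CYP3A genes the stretch with the most matching arm bases is shown, searched without gaps, with 10 bases on either side. Capitals mark the bases that match the arms, read 5′ to 3′ on the strand of each gene. In the order shown, the stretches begin 169, 113, 168 and 177 bases before the transcription start, not counting the 10 flanking bases.
CYP3A4: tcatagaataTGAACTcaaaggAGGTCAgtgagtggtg
CYP3A5: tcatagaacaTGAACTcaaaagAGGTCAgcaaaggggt
CYP3A7: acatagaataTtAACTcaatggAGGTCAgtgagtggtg
CYP3A43: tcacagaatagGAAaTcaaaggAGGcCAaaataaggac
CYP3A4 (chr7:99784326-99784363) and CYP3A5 (chr7:99680082-99680119) held all 12 arm bases. Positions counted from 1 at the first base of the element, CYP3A5 differs from CYP3A4 in the spacer by G11A. CYP3A7 (chr7:99735337-99735374) held 11 of the 12 arm bases, with G2T in the first arm and A10T in the spacer. CYP3A43 (chr7:99827826-99827863, plus strand) held 9, with T1G, C5A and T16C. TGAACT, 6 bases and AGGTCA were searched on both strands of the 250 bases before the start. This element occurred in 3 of 27305 gene symbols with a RefSeq promoter (0.011%). Of the 25 called genes with a promoter, CYP3A4 alone had it. The element is known from CYP3A4, so that match was fixed beforehand and is no support. A PPAR repeat (AGGTCA, 1 base, AGGTCA) was in 0 of the 25 and in 2 of 9083 tested genes (0.022%). GCGTG, a core bound by the aryl hydrocarbon receptor, was in 24% and 53.8% of them. A match describes the letters only and is not a measured binding site.

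The other CYP3A genes did not pass the threshold. CYP3A5, which shares many substrates with CYP3A4, was at 11.5 to 24.4 FPKM with isoxaflutole and 3.83 to 9.68 FPKM with mesotrione. Its groups did not overlap, and the log2 difference of 0.97 (SE 0.25, 95% interval 0.41 to 1.53) had a limma adjusted p of 0.323. CYP3A7, the fetal liver form, stood at 3.10 ± 1.29 against 0.907 ± 0.444 FPKM (SD, n = 5 each), a log2 difference of 1.08 with an adjusted p of 0.173 by limma. CYP3A43 was too low to be tested, at means of 0.12 and 0.0388 FPKM. These genes are close in sequence, and how the authors' pipeline shared reads between them is not given, so their values are uncertain as separate measurements.

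Over the list of CAR and PXR targets, 20 of 22 genes were tested and CYP3A4 alone was called (0.234% of all genes were). The median log2 difference was 0.26 beside 0.03 for all genes. The members were not uniform: 15 of the 20 lay above 0 (7259 of 12806 among all genes), and the lowest difference was -0.89. In 5 of the 20 the isoxaflutole libraries all lay above the mesotrione libraries, as in 1.78% of all genes. CYP2B6, the classic CAR target, was at 4.92 ± 1.12 against 2.72 ± 1.497 FPKM (SD, n = 5 each), a log2 difference of 0.75 (95% interval 0.11 to 1.38, limma adjusted p = 0.593). Its pseudogene CYP2B7P was called, at 3.13 ± 0.574 against 1.13 ± 0.440 FPKM (log2 difference 0.97, limma adjusted p = 0.0451), but reads of the pair are hard to tell apart and the call is uncertain. UGT1A1, which conjugates bilirubin, was at 160 ± 52.3 against 68.9 ± 29.5 FPKM, with a log2 difference of 1.33 (95% interval 0.43 to 2.22) and a limma adjusted p of 0.426. It shares its last exons with the other UGT1A genes. Of the receptors, PXR (NR1I2) was at 1.94 ± 0.319 against 1.85 ± 0.564 FPKM, and its heterodimer partner RXRA at 36.2 ± 2.57 against 33.9 ± 2.34 FPKM, with intervals of the log2 difference from -0.26 to 0.37 and from -0.07 to 0.25.

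The second set of called genes lies in lipid handling. On the list of PPARalpha targets, 23 of 28 genes were tested, 7 were higher with isoxaflutole (0.226% of all genes were) and none was lower. The 7 were ANGPTL4, FABP4, PLIN2, CIDEC, PDK4, ACSL5 and SLC25A20. Of these, FABP4 entered the test through its isoxaflutole libraries alone. The list was chosen with earlier results of these data known, so its counts describe it and are no independent test. The median log2 difference of the 23 was 0.59, beside 0.03 for all genes, 20 of them lay above 0 (7259 of 12806 among all genes), and in 10 all isoxaflutole libraries were above all mesotrione libraries (1.78% among all genes). The receptor gene itself, PPARA, was at 4.06 ± 1.20 FPKM with isoxaflutole and 4.12 ± 2.48 FPKM with mesotrione (SD, n = 5 each). Its log2 difference was 0.08 with an interval from -0.57 to 0.73. The related receptor gene PPARG was at 7.42 to 9.59 FPKM with isoxaflutole and 6.33 to 9.12 FPKM with mesotrione. PPARD was at 8.07 to 11.7 and 0.0399 to 9.60 FPKM. Whether any of these receptors acted on the listed genes was not tested.

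ANGPTL4 (chr19:8363289-8374373, plus strand) encodes a secreted inhibitor of lipoprotein lipase. Its level was 35.2, 25.7, 21.7, 21.6 and 21.4 FPKM in the isoxaflutole libraries and 3.65, 3.16, 3.34, 3.35 and 4.46 FPKM in the mesotrione libraries. Every isoxaflutole library was more than 4 times the highest mesotrione library. The means were 25.1 ± 5.93 and 3.59 ± 0.516 FPKM (SD, n = 5 each), a 7.00-fold ratio, and the log2 difference was 2.49 (SE 0.14, 95% interval 2.17 to 2.81, limma adjusted p = 6.69e-05). Control libraries averaged 2.45 ± 0.442 FPKM.

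The lipid droplet genes and a fatty acid carrier were higher as well. PLIN2 (chr9:19108375-19149290, minus strand), the coat protein of most liver lipid droplets, was at 92.2, 83.3, 75.4, 79.4 and 74.6 FPKM with isoxaflutole and at 22.6, 23.5, 30.4, 29.1 and 28.8 FPKM with mesotrione. The groups were far apart, with a log2 difference of 1.56 (SE 0.10, limma adjusted p = 8.69e-05), and the control mean of 33.7 ± 2.11 FPKM lay between them, above all 5 mesotrione libraries. CIDEC, which fuses lipid droplets, was at 7.28, 4.63, 7.01, 5.37 and 5.32 FPKM with isoxaflutole against 1.74, 2.02, 1.97, 3.65 and 1.496 FPKM with mesotrione. All isoxaflutole libraries lay above the highest mesotrione library (log2 difference 1.14, SE 0.18, limma adjusted p = 0.039). FABP4, a fatty acid carrier better known from fat cells and macrophages, was at 3.95, 4.29, 5.34, 7.27 and 3.29 FPKM with isoxaflutole. With mesotrione it was listed at 0 in 4 libraries and at 0.0701 FPKM in replicate 3. The log2 difference was 2.49 (SE 0.16, limma adjusted p = 8.69e-05). FABP4 passed the filter on low values through its isoxaflutole libraries alone, and the control libraries held 0.353 ± 0.160 FPKM.

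PDK4 (chr7:95583499-95596491, minus strand) shuts the entry of pyruvate into the citric acid cycle and so spares glucose when fat is burned. It was at 11.2, 11.4, 11.3, 11.7 and 15.7 FPKM with isoxaflutole and at 4.47, 4.53, 5.59, 7.32 and 6.95 FPKM with mesotrione. The groups did not overlap, and the log2 difference was 0.98 (SE 0.15, limma adjusted p = 0.0284). The controls averaged 5.19 ± 1.03 FPKM. ACSL5, which activates fatty acids with coenzyme A, was at 37.9 to 48.1 FPKM against 23.8 to 30.7 FPKM (log2 difference 0.67, limma adjusted p = 0.0131). With its most abundant transcript alone ACSL5 was not called and its difference turned to -0.24. SLC25A20, the carnitine-acylcarnitine carrier of the inner mitochondrial membrane, was at 12.1 to 13.2 FPKM against 7.71 to 9.80 FPKM, with a log2 difference of 0.47 and a limma adjusted p of 0.0451. Without any 1 of the 10 libraries SLC25A20 was no longer called, with adjusted p-values up to 0.148 by limma.

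**Figure D2:**
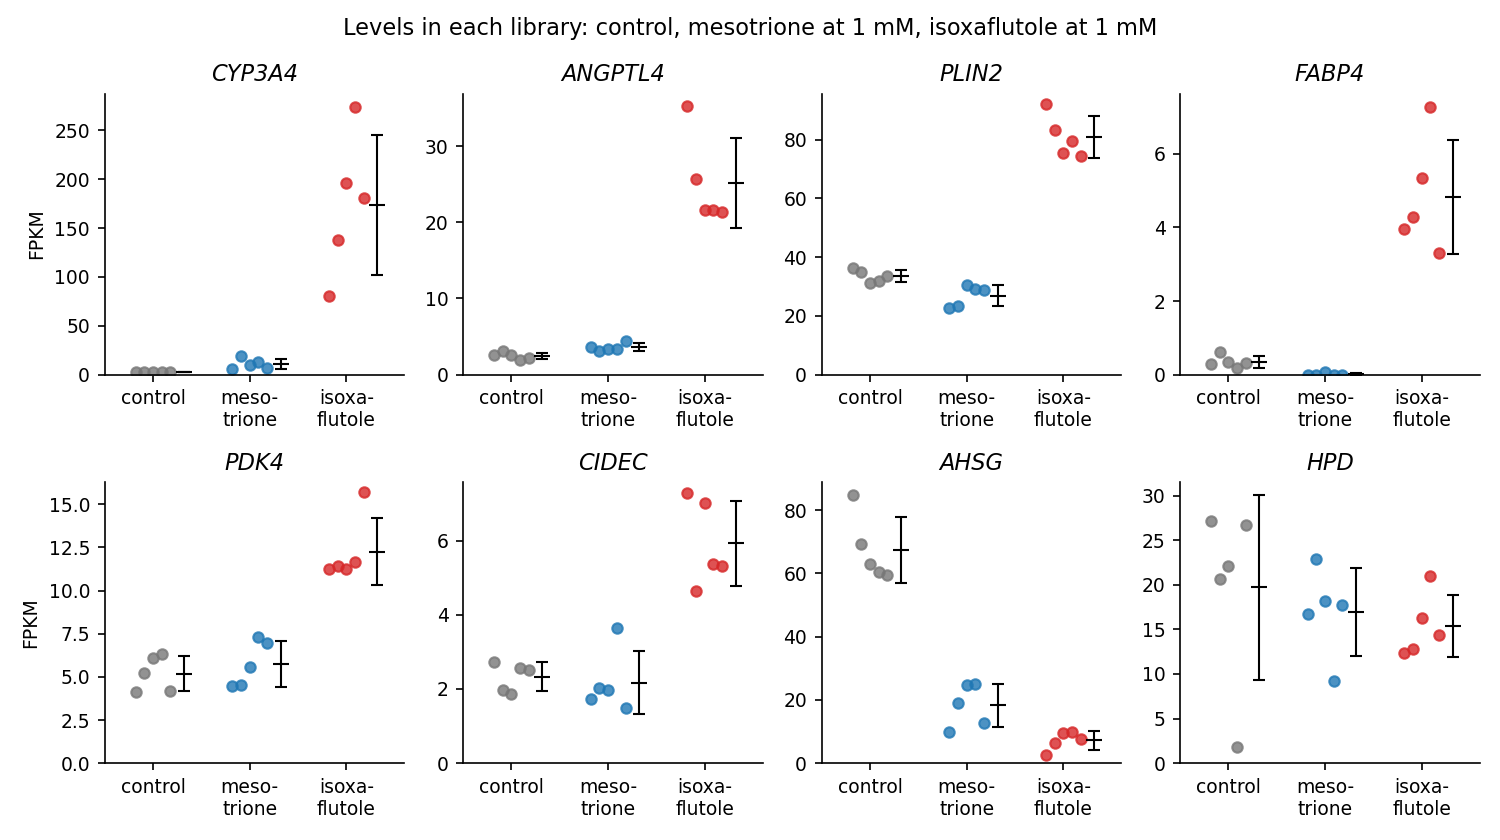
Each panel is a gene and each point a library, in FPKM on an axis that starts at 0, for control, mesotrione at 1 mM and isoxaflutole at 1 mM (5 libraries each). The black bar is the mean with its SD. CYP3A4, ANGPTL4, PLIN2, FABP4, PDK4 and CIDEC have all isoxaflutole libraries above all mesotrione libraries, AHSG has all of them below, and HPD overlaps.

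Other PPARalpha targets showed large or small differences that did not pass. FABP1, the abundant fatty acid binding protein of hepatocytes, was at 78.0 to 116 FPKM with isoxaflutole and 13.8 to 67.5 FPKM with mesotrione, with a log2 difference of 1.39 (95% interval 0.64 to 2.14, limma adjusted p = 0.243). CREB3L3, a liver transcription factor of fasting, was at 32.04 to 69.7 against 17.8 to 24.6 FPKM (log2 difference 1.06, limma adjusted p = 0.0572). CPT1A, which controls the entry of fatty acids into mitochondria, was at 38.5 to 46.7 against 21.6 to 31.2 FPKM (log2 difference 0.59, limma adjusted p = 0.0679). The groups of these 3 genes did not overlap. Against them stand members close to 0. VNN1, which makes cysteamine from pantetheine, had a log2 difference of 0.11 (95% interval -0.42 to 0.64). The peroxisomal enzyme EHHADH was at 0.04 (-0.58 to 0.65) and the fatty acid hydroxylase CYP4A11 at -0.03 (-0.71 to 0.65). G0S2, an inhibitor of the lipase ATGL, was at -0.31 (-0.58 to -0.03, limma adjusted p = 0.609). PLIN5, CIDEA, FABP3, FGF21 and CYP4A22 were below the filter, and CIDEA and FGF21 were listed at 0 in all 10 libraries. The members are thus not uniform, and the plot of list members gives the differences with their intervals.

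**Figure D3:**
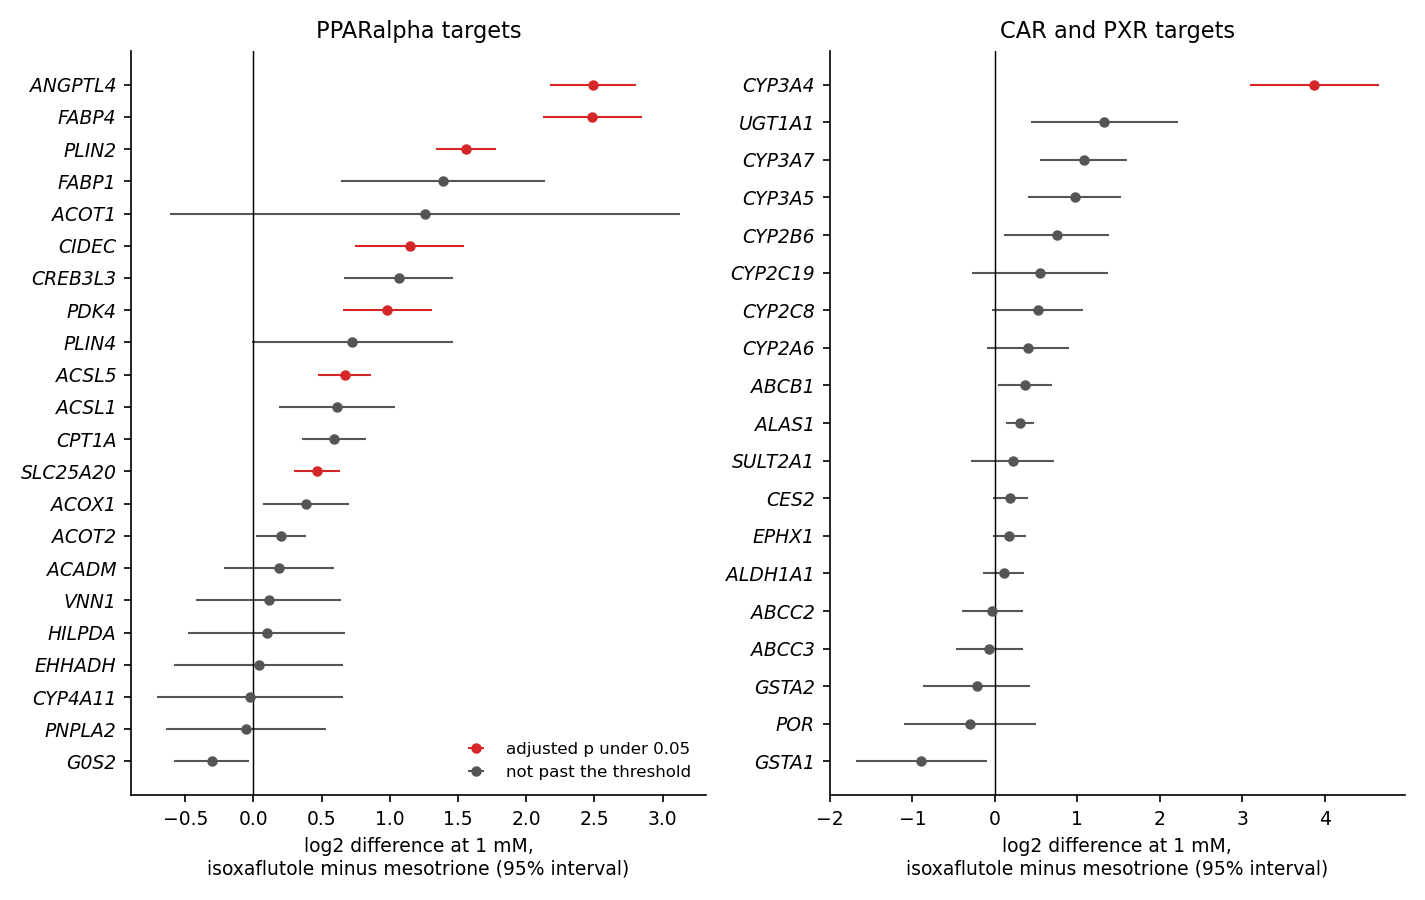
Log2 difference at 1 mM, isoxaflutole minus mesotrione, with its 95% interval, for tested members of the PPARalpha list (left) and of the CAR and PXR list (right). Coloured points passed the adjusted threshold, 7 on the left and 1 on the right.

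The enzymes that oxidise fatty acids differed less. All 13 tested genes of mitochondrial fatty acid oxidation had differences above 0, with a median of 0.29 on the log2 scale and a range from 0.06 to 0.41, where 7259 of all 12806 genes were above 0. HADHA alone was called (0.234% of all genes were). HADHA, the alpha subunit of the mitochondrial trifunctional protein, was at 98.1, 107, 102, 103 and 110 FPKM with isoxaflutole and at 81.2, 76.0, 81.6, 81.1 and 84.6 FPKM with mesotrione. The ranges did not meet, and the log2 difference was 0.36 (SE 0.06, limma adjusted p = 0.0352), a 1.29-fold ratio of means. Its partner subunit HADHB was at 87.2 ± 16.8 against 64.6 ± 6.15 FPKM (SD, n = 5 each), a log2 difference of 0.41 (95% interval 0.13 to 0.69, limma adjusted p = 0.426). Of 12 genes of peroxisomal oxidation 11 were tested and none was called, with a median of 0.25. In 5 of the 11 all isoxaflutole libraries were above all mesotrione libraries, as in 1.78% of all genes. The largest was HSD17B4, the bifunctional enzyme of peroxisomal beta-oxidation, at 47.99 ± 6.25 against 30.9 ± 4.10 FPKM (log2 difference 0.62, 95% interval 0.37 to 0.87, limma adjusted p = 0.0705).

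Several called genes belong to neither group. UBD, a ubiquitin-like protein induced by inflammatory cytokines (chr6:29555515-29559925, minus strand), was at 46.99, 59.2, 41.3, 36.3 and 38.9 FPKM with isoxaflutole and at 21.1, 17.8, 13.7, 14.1 and 13.2 FPKM with mesotrione (log2 difference 1.42, SE 0.16, limma adjusted p = 0.00549). OR2I1P (chr6:29553219-29554166, plus strand), an olfactory receptor pseudogene next to it on the other strand, was called with a similar log2 difference of 1.40. The library kit keeps the strand, but the counting setting is not given, so these neighbours are uncertain as separate calls. The other 16 tested genes of the MHC class I and interferon list were not called (0.234% of all genes were), and the list's median was 0.02.

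CD14, the lipopolysaccharide co-receptor that hepatocytes also make, was at 4.99 to 5.68 FPKM with isoxaflutole and 1.57 to 3.55 FPKM with mesotrione (log2 difference 1.06, SE 0.15, limma adjusted p = 0.0239). Control libraries ran from 1.06 to 5.74 FPKM, across the levels of both compounds. CD14 stands on the list of leukocyte markers, where it was the single call of 4 tested genes (0.234% of all genes were called). All 4 had differences above 0 (7259 of 12806 among all genes), with a median of 0.27. CD68 was at 5.01 to 27.2 FPKM with isoxaflutole and 4.94 to 19.1 FPKM with mesotrione, and did not pass. LYZ, the lysozyme gene, was at 1.34 to 2.44 FPKM with isoxaflutole and 0.403 to 1.37 FPKM with mesotrione, and did not pass (log2 difference 0.49, limma adjusted p = 0.48). The defining leukocyte genes PTPRC and CD3E had means of 0.0117 and 0.00222 FPKM with isoxaflutole and were listed at 0 in every mesotrione library. The summed level of the 7 leukocyte markers ran from 13.2 to 35.8 FPKM with isoxaflutole and from 9.11 to 22.3 FPKM with mesotrione. In these bulk cultures a change in the share of a cell type cannot be told apart from a change in RNA per cell.

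SGK2, a serum- and glucocorticoid-regulated kinase, was at 30.6 to 42.6 FPKM against 13.7 to 19.996 FPKM (log2 difference 0.96, limma adjusted p = 0.00859). LPCAT3, which builds polyunsaturated phosphatidylcholine, had tight groups at 23.2, 23.0, 21.7, 23.5 and 22.5 FPKM against 14.1, 12.05, 12.1, 13.5 and 12.4 FPKM. Its log2 difference was 0.78 (SE 0.07, limma adjusted p = 0.000626). LPCAT1 was at 39.3 ± 2.87 against 26.3 ± 3.60 FPKM (log2 difference 0.57, limma adjusted p = 0.0451). TSKU, a secreted protein of liver, was at 58.3 to 84.7 against 36.1 to 44.8 FPKM (0.79, limma adjusted p = 0.012). SERINC2, of a family of membrane proteins, was at 109 to 135 against 59.3 to 72.1 FPKM, and GPX2, a glutathione peroxidase, at 81.3 to 96.8 against 45.2 to 66.4 FPKM. Their log2 differences were 0.76 and 0.75, with limma adjusted p-values of 0.00369 and 0.0154. ASS1, argininosuccinate synthase of the urea cycle, was at 251 to 313 against 172 to 199.8 FPKM (0.58, limma adjusted p = 0.0131). It was the single call of 9 tested genes of the urea cycle and amino acid list (0.234% of all genes were called).

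The remaining called genes had differences between 0.36 and 0.71 on the log2 scale. Among them RETSAT, a retinol saturase, was at 59.5 to 67.997 against 40.7 to 45.1 FPKM (0.55, limma adjusted p = 0.00369). AQP3, an aquaglyceroporin, was at 23.9 to 27.6 against 15.3 to 19.8 FPKM (0.49, limma adjusted p = 0.0451). Control libraries held 22.4 to 36.1 FPKM of AQP3, above every mesotrione library and spanning the isoxaflutole range. TTC9, RHOB, MMP15, RAB20, PTPRF, FGFRL1 and TRIM31 complete the higher genes. TRIM31 passed the filter through its isoxaflutole libraries alone, at 1.30 to 1.90 against 0.467 to 0.932 FPKM. CAV1, the coat protein of caveolae (chr7:116524785-116561184, plus strand), was at 97.8, 90.04, 84.7, 80.1 and 105 FPKM with isoxaflutole and at 133, 121, 121, 142 and 141 FPKM with mesotrione. Each isoxaflutole library was below each mesotrione library, with a log2 difference of -0.52 (SE 0.09, limma adjusted p = 0.0454). Control libraries averaged 135 ± 14.6 FPKM for CAV1, close to the mesotrione mean of 132 ± 10.3.

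Of the 30 genes, 10 were called in all 10 fits that left out 1 library: ANGPTL4, CYP3A4, FABP4, LPCAT3, MMP15, PLIN2, RETSAT, SERINC2, SGK2 and UBD. The other 20 were lost in at least 1 of them. TSKU kept its call in 9 of the fits, TTC9 in 8, ACSL5 in 7, ASS1 and RHOB in 6, GPX2 and RAB20 in 5, FGFRL1 and PTPRF in 3, and SLC25A20 in 0. PDK4, CIDEC, CD14, HADHA, CAV1, OR2I1P, AQP3, CYP2B7P, LPCAT1 and TRIM31 kept it in 1, with limma adjusted p-values that reached 0.15 at most. The number called higher fell from 29 to 10 without mesotrione replicate 3, to 12 without mesotrione replicate 5, to 15 without isoxaflutole replicate 2 or 4, to 16 without mesotrione replicate 2 and to 17 without isoxaflutole replicate 5. The PPARalpha count went from 7 to 3 without mesotrione replicate 3 or 5 or isoxaflutole replicate 2, and to 4 without mesotrione replicate 2 or isoxaflutole replicate 3 or 5. With other settings the number higher ran from 6, with all 50 libraries in the fit, to 68, with unnamed transcripts added. ANGPTL4, CYP3A4, PLIN2 and FABP4 were called wherever they were tested. FABP4 passed the filter through its isoxaflutole libraries alone, so its repeated calls are no separate support.

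The pathway of the herbicide target did not separate the compounds. Tyrosine is degraded by TAT, HPD, HGD, GSTZ1 and FAH in turn. Of the 6 genes on the list 5 were tested, none was called, no groups lay apart, and the median log2 difference was 0.10. HPD, which encodes HPPD (chr12:121839527-121863596, minus strand), was at 12.4, 12.8, 16.3, 21.0 and 14.3 FPKM with isoxaflutole and at 16.7, 22.9, 18.2, 9.20 and 17.8 FPKM with mesotrione. The ranges overlapped almost wholly, and the log2 difference was -0.11 (95% interval -0.59 to 0.38, limma adjusted p = 0.943). The intervals were -0.18 to 0.90 for HGD (0.36), -0.15 to 0.30 for GSTZ1 (0.08) and -0.02 to 0.57 for FAH (0.28). TAT was too low to be tested, at means of 0.565 and 0.389 FPKM. These levels depend on the transcripts counted. With unnamed transcripts added, HPD was at 16.1 ± 3.12 against 19.6 ± 2.10 FPKM (SD, n = 5 each). HGD was then at 34.5 ± 4.62 against 30.7 ± 3.34 FPKM, and neither gene was called in that fit.

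CYP1A1, the marker gene of the aryl hydrocarbon receptor AHR, was at 13.9, 6.99, 2.77, 3.15 and 2.64 FPKM with isoxaflutole and at 3.24, 3.29, 1.84, 2.13 and 0.333 FPKM with mesotrione. The groups overlapped and the spread was wide, so the log2 difference of 0.99 (95% interval 0.00 to 1.99) had a limma adjusted p of 0.649. None of the 8 AHR targets was called, and their median was -0.04. The stress lists gave no call: 20 NRF2 targets with a median of 0.05, 14 genes of the integrated stress response with 0.01 and 17 chaperones of the endoplasmic reticulum with 0.04. ASNS, asparagine synthetase, a target of the stress factor ATF4, was at 15.7 ± 2.77 against 17.2 ± 3.36 FPKM (SD, n = 5 each), a log2 difference of -0.12 with an interval from -0.45 to 0.21. Cholesterol synthesis (25 genes, median 0.08) and fatty acid synthesis (13 genes, median 0.18) held no called gene either.

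**Figure D4:**
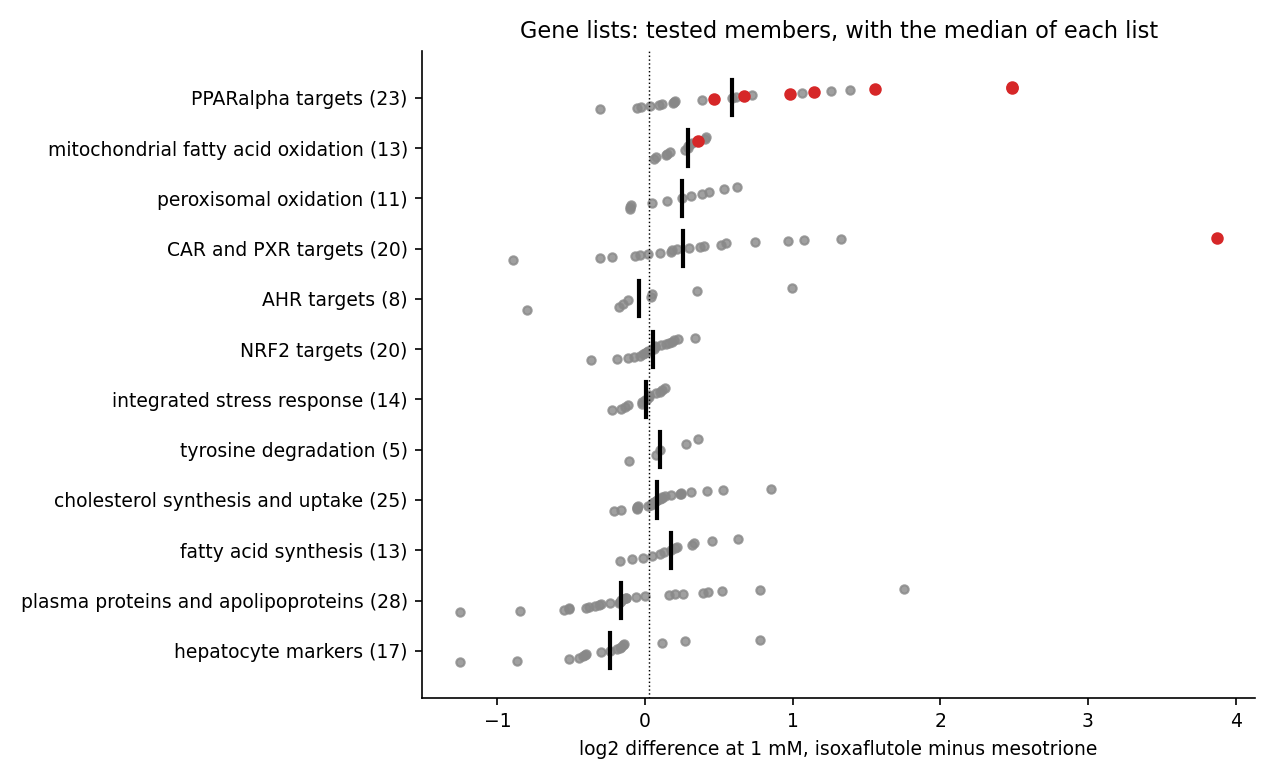
Each point is a tested member of a gene list (number tested in brackets) at its log2 difference, isoxaflutole minus mesotrione at 1 mM. The black tick is the list's median and the dotted line the median of all genes, 0.03. Coloured points passed the adjusted threshold. The PPARalpha list has the highest median of the lists drawn, 0.59, and the hepatocyte list the lowest, -0.24.

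Of 31 plasma proteins and apolipoproteins 28 were tested, none was called, 8 lay above 0 (7259 of 12806 among all genes), and the median was -0.16. AHSG, the plasma protein fetuin-A, was at 2.66, 6.24, 9.64, 9.86 and 7.56 FPKM with isoxaflutole, at 9.94, 19.1, 24.6, 25.1 and 12.6 FPKM with mesotrione and at 67.4 ± 10.4 FPKM in controls. Isoxaflutole libraries all lay below mesotrione libraries, the nearest at 9.86 and 9.94 FPKM, and the log2 difference of -1.25 (95% interval -2.004 to -0.50) had a limma adjusted p of 0.343. ALB differed by -0.40 with an interval from -0.97 to 0.17. APOA2, a protein of high-density lipoprotein, went the other way without overlap, at 109 ± 22.6 against 34.3 ± 16.9 FPKM and a control mean of 98.1 ± 29.95 (log2 difference 1.76, 95% interval 1.07 to 2.44, limma adjusted p = 0.0663). With unnamed transcripts added APOA2 was called (limma adjusted p = 0.0371). The 17 tested hepatocyte markers had a median of -0.24 and no call. Their summed level ran from 10554 to 19431 FPKM with isoxaflutole, from 12734 to 21006 FPKM with mesotrione and from 20368 to 23898 FPKM in controls. The 11 biliary markers summed to 486 to 612, 426 to 565 and 638 to 729 FPKM in the same order. Stellate and mesenchymal markers, 12 genes, summed to 42.9 to 48.7 and 39.1 to 54.4 FPKM with the compounds and 84.7 to 92.0 FPKM in controls. Among them COL3A1, a fibrillar collagen, was at 3.47 ± 0.746 against 2.62 ± 0.905 FPKM and at 17.7 ± 2.95 in controls, and the interval of its log2 difference between the compounds was -0.11 to 0.77. The 6 endothelial markers summed to 1.24 to 2.15 and 1.15 to 1.77 FPKM. The part of these marker levels in the called genes was not tested.

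At lower concentrations the compounds hardly separated. At 10 uM, 1 of 13082 genes was called (0.00764%) and 520 had an unadjusted p below 0.05. At 0.1 uM, limma called 0 of 13031 genes (0%), 541 had an unadjusted p below 0.05, and no other tool was run. CYP3A4 was at 3.15 to 9.36 FPKM with isoxaflutole and 2.71 to 11.2 FPKM with mesotrione at 10 uM, a log2 difference of 0.03 with an interval from -0.76 to 0.83. At 0.1 uM it was at 2.64 to 13.5 against 1.38 to 3.95 FPKM (log2 difference 0.99, 95% interval 0.23 to 1.74, limma adjusted p = 0.938). ANGPTL4 differed by -0.09 (-0.41 to 0.23) at 10 uM and by -0.01 (-0.46 to 0.44) at 0.1 uM. For PLIN2 the values were 0.06 (-0.10 to 0.22) and 0.02 (-0.22 to 0.26), and for PDK4 they were 0.00 (-0.37 to 0.37) and -0.11 (-0.61 to 0.39). FABP4 and CYP1A1 were too low to be tested at these concentrations, with FABP4 at most 0.540 FPKM in any library at 10 uM.

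The difference at 1 mM minus the difference at 10 uM was tested directly over 13882 genes. It passed for 15 genes (0.108%), all higher, and 978 had an unadjusted p below 0.05. All 15 were also called at 1 mM, with which this contrast shares its libraries. The log2 values were 3.84 for CYP3A4 (limma adjusted p = 0.00166), 2.58 for ANGPTL4 (1.38e-06), 2.37 for FABP4 and 1.502 for PLIN2 (1.38e-06 each). FABP4 met the filter of this contrast only through its isoxaflutole libraries at 1 mM, so its adjusted p is no separate support. PDK4, at 0.98, did not pass (limma adjusted p = 0.175), nor did AHSG at -1.46 (0.263) or HPD at 0.76, whose interval ran from -0.64 to 2.15. The isoxaflutole libraries at 10 uM ran from 1.62 to 25.8 FPKM for HPD.

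**Figure D5:**
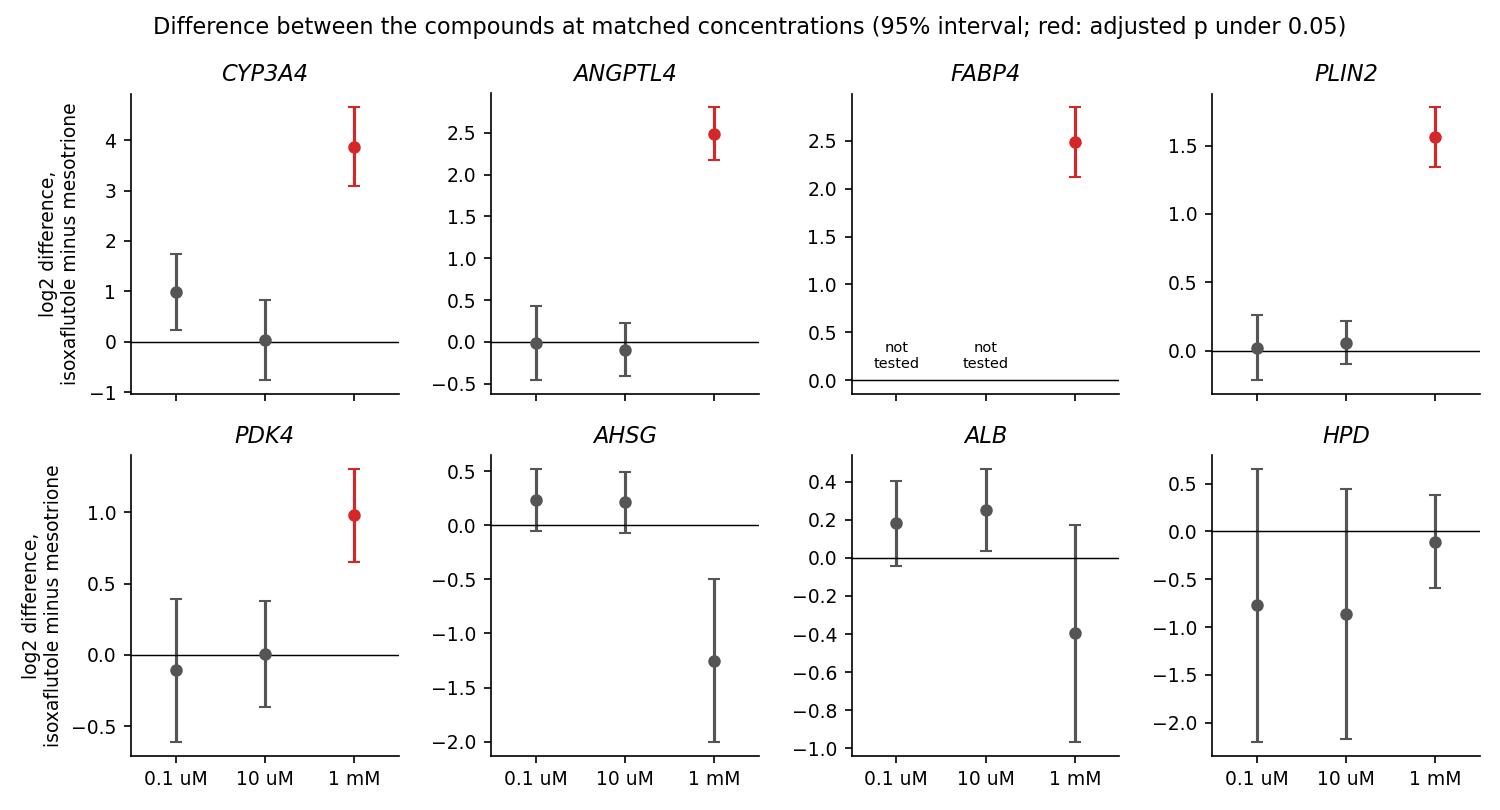
Log2 difference between the compounds, isoxaflutole minus mesotrione, with its 95% interval, at 0.1 uM, 10 uM and 1 mM for 8 genes. Red points passed the adjusted threshold at that concentration. CYP3A4, ANGPTL4, PLIN2 and PDK4 pass at 1 mM and at neither lower concentration, and FABP4 was tested at 1 mM only.

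The 1 gene called at 10 uM was HIST1H4E, a replication-dependent histone H4 gene, singled out after its values were seen. It was at 50.3 to 60.8 FPKM in the isoxaflutole libraries and 0.545 to 1.45 FPKM in the mesotrione libraries (log2 difference 4.94, limma adjusted p = 2.79e-08). Over all 50 libraries of the series its level was at 0.433 to 4.72 FPKM in 23 and at 19.6 to 62.7 FPKM in 27, with none between. At 1 mM both compounds had libraries on either side, 3 of 5 above 10 FPKM each. Histone H4 genes are near-identical copies, so the value of 1 of them is uncertain.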

How the data were processed

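RNA of HepaRG cultures was read as stranded, ribosome-depleted paired-end libraries, per the labels' protocols. Per the submitters' processing notes, HISAT or HISAT2 and StringTie were used with build GRCh38 (their versions are not given in the sources used here). Sequencing used 3 pools, per the labels' protocols. The pools are not tied to samples in the labels, so no value within a pool could be given. The authors deposited FPKM per transcript for 50 libraries, and 98.7% of the Ensembl transcripts had the start and end of GENCODE's annotation. The other columns the authors deposited (transcript, gene name, position) served as identifiers. FPKM was summed per gene name, 40117 unnamed transcripts of 239290 were left out (12.7% to 15.5% of the FPKM of a library at 1 mM), 24 values below 0 were set to 0 and 1 broken line was rejoined. Transcript FPKM does not give whole reads per gene, so no count test was run, and precision comes from the spread between libraries.

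Groups came from the sample titles. Each contrast used log2(FPKM + 1) and limma 3.58.1 (R 4.3.3; trend and robust variance, two-sided), with Benjamini-Hochberg adjustment over all genes tested and a threshold of 0.05. The fit was tested on simulated data with the spread of these 10 libraries. It called 12 of 50 genes changed 1.5-fold, 26 of 50 changed 2-fold and 43 of 50 changed 4-fold. Of its 127 calls, 8 were genes left unchanged. A gene without a call may therefore still differ. Genes needed 1 FPKM in 5 libraries. Alternatives were another pseudocount, 2 other filters, median-ratio scaling, more groups in the fit, a replicate block, plain variance, unnamed transcripts added, the most abundant transcript alone and each library left out. Adjustment over the 3 concentrations together was chosen after seeing the data.

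The members and gene lists were chosen with earlier results of these data known. Genes were named by this rule: 10 core genes (CYP3A4, CYP1A1, ANGPTL4, PLIN2, PDK4, AHSG, ALB, ASNS, COL3A1 and HPD), the 15 largest and 15 smallest differences among called genes with an approved symbol, 5 FPKM in the higher group and no overlap, up to 6 called members per list, and the tyrosine genes. Some list members are counted but not reported here by name. AQP3, CYP2B7P, FGFRL1, LPCAT1, MMP15, PTPRF, RAB20, RETSAT, RHOB, SLC25A20, TRIM31 and the members named without a call were chosen after their values were seen. Promoters are RefSeq's (GRCh38.p14).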

Additional observations from a re-analysis of the deposited data

Results flagged for a closer look

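Single libraries stood apart from the other 4 of their group in 6 of 82 groups of 5 examined, where the gap to the nearest library was more than 0.71 of the group's range. Chance gives about 1 in 20 groups. PDK4 was at 15.7 FPKM in isoxaflutole replicate 5 and at 11.2 to 11.7 FPKM in the others. With mesotrione, replicate 4 held 3.65 FPKM of CIDEC against 1.496 to 2.02 FPKM, and replicate 1 held 3.55 FPKM of CD14 against 1.57 to 1.87 FPKM and 12.7 FPKM of RAB20 against 11.3 to 11.7 FPKM. SERINC2 was low in mesotrione replicate 3, at 59.3 FPKM against 68.8 to 72.1 FPKM. FABP4 was at 0.0701 FPKM in that same library and listed at 0 in the other 4.

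The difference between the compounds at 1 mM differed from that at 10 uM in 15 genes by the interaction test (limma, 20 libraries). FABP4, one of them, met the filter only through its isoxaflutole libraries at 1 mM. Beyond CYP3A4 (3.84), ANGPTL4 (2.58), FABP4 (2.37) and PLIN2 (1.502), the log2 values were 1.00 for TSKU, 0.90 for SGK2, 0.85 for LPCAT3, 0.79 for SERINC2, 0.66 for ACSL5, 0.65 for TTC9, 0.60 for ASS1, 0.59 for both MMP15 and RETSAT, 0.53 for PTPRF and 0.37 for HADHA.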

How the results depend on the processing

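ANGPTL4, CYP3A4 and PLIN2 were called under every alternative run at 1 mM. So was FABP4, except under the filter of 5 FPKM in 5 libraries, which it failed. FABP4 met the main filter through its isoxaflutole libraries alone, so its calls are no separate support. The counts moved. Against 29 higher, 1 lower and 7 PPARalpha targets, no filter gave 9, 0 and 3, with the most abundant transcript 14, 0 and 4, and 50 libraries in the fit 6, 0 and 4. Without the quizalofop-p-ethyl 10 uM replicate 5, 49 libraries gave 52 higher and 7 lower, and the controls added (15 libraries) gave 52 and 4. Median-ratio scaling, which moved the median of all genes from 0.03 to -0.01, gave 18 higher, and plain variance 0 lower. Adding unnamed transcripts gave 68, 4 and 11, with all 30 calls shared. Joint adjustment over 3 concentrations gave 17, 0 and 4, and 1 gene (SETD2) higher at 0.1 uM. Leaving out 1 library gave 10 to 25 higher, 0 to 3 lower and 3 to 6 PPARalpha targets at 1 mM, 1 to 2 and 0 to 1 at 10 uM, 0 to 1 and 0 to 1 at 0.1 uM, and 12 to 18 and 0 for the interaction. At 10 uM the count rose to 2 higher (ZNF45) without isoxaflutole replicate 5 and to 1 lower (TBC1D4) without isoxaflutole replicate 3. At 0.1 uM 1 gene was lower without mesotrione replicate 1 or 5 or isoxaflutole replicate 2 or 5, and 1 higher without mesotrione replicate 1 or isoxaflutole replicate 2. The cause of these moves was not tested.

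Directions turned for ASNS (0.065), ACSL5 (-0.24) and GSTZ1 (-0.12) with the most abundant transcript, and for HPD (0.011) without mesotrione replicate 2. With 1 library left out, HPD ran from -0.30 to 0.011. Of the single-gene values under alternatives, 592 kept their direction and side of the threshold, 252 kept the direction and lost the call, and 1 gained it.

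The runs of title numbers were not taken as pairs, since the labels give them no meaning and same-run correlations of the deviations at 1 mM ran from 0.0189 to 0.200, not all over 0.1. As a hint from the data, all 15 same-run values at the 3 concentrations were above 0, and at 1 mM 4 of 5 isoxaflutole and 3 of 5 mesotrione libraries correlated best with their own run. As a replicate block they gave 19 higher, 3 lower and 5 PPARalpha targets at 1 mM, 1 gene at 10 uM, 0 at 0.1 uM, and 27 higher and 2 lower for the interaction. With read totals not in the table, depth limits no value here by a stated amount.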

Other observations

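Between 12.7% and 15.5% of the FPKM of a library sat on transcripts without a gene name, and adding those that lay in the locus of a single named gene moved some lipid genes across the threshold. PLIN4, another lipid droplet coat protein, went from 3.95 ± 2.76 against 1.79 ± 0.768 FPKM (SD, n = 5 each; log2 difference 0.72, limma adjusted p = 0.654) to means of 23.7 against 5.53 FPKM (log2 difference 1.90, limma adjusted p = 0.00043). CREB3L3 (1.07, limma adjusted p = 0.0195), ACSL1 (0.82, 0.0105), CPT1A (0.59, 0.0343), HSD17B4 (0.62, 0.036) and APOA2 (1.69, 0.0371) were called as well. LIPC, the hepatic lipase, turned from -0.15 to 0.69 (limma adjusted p = 0.0191). In that fit 72 of 13394 genes were called (0.538%).

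Large differences were not always called. SNORA73A, a small nucleolar RNA, was at 246 ± 356 against 3.93 ± 3.13 FPKM (log2 difference 3.81, limma adjusted p = 0.522), MTATP6P1, a mitochondrial pseudogene, at 89.7 ± 82.5 against 166 ± 45.6 FPKM (-2.99, limma adjusted p = 0.711), and COPRS at 16.3 ± 14.99 against 0.902 ± 1.94 FPKM (2.80, limma adjusted p = 0.47). For SNORA73A and COPRS the SD was larger than the mean in 1 of the groups.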
